A study of Mus musculus with 21 samples.

Results

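The Slc25 family, mostly carriers of the inner mitochondrial membrane, was represented on the array by 104 of 56605 probes and by 47 of 37074 gene names. Its members were all probes whose gene name in the scanner files was Slc25a followed by a number, and no measured value entered that choice. The study compared liver progenitor-like cells grown from mouse hepatocytes (chemically induced liver progenitors, CLiPs) with the hepatocytes themselves, and asked how far the cells regain hepatocyte expression after hepatic induction. All samples were from female C57BL/6 mice, and each of 7 groups held 3 arrays. The late CLiPs, passaged 11 or 12 times, were arrayed after 8 days with oncostatin M and dexamethasone (late induced), after 8 days without them (late uninduced) and before these days (late day 0). CLiPs at passage 1 (P1) formed the groups P1 induced, P1 uninduced and P1 day 0 in the same way. Freshly isolated hepatocytes (fresh) were the last group and received no induction. The labels of 1 fresh array, replicate 3, carry a P1 passage entry. Oncostatin M is a cytokine and dexamethasone a synthetic glucocorticoid. Whether replicates came from different animals or cultures is not in the labels, and the p-values therefore refer to the spread among these arrays alone, which may be technical.

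Carriers of the Slc25 family share a fold of repeated transmembrane helices, and most move metabolites, nucleotides, cofactors and ions between the cytosol and the mitochondrial matrix. In liver they serve the urea cycle (ornithine, aspartate and glutamate), fatty acid oxidation (acylcarnitines), lipid synthesis (citrate) and the exchange of ATP and ADP. Several carriers exist as isoforms of the same activity that are used in different tissues, such as the adenine nucleotide carriers Slc25a4, Slc25a5 and Slc25a31 and the ATP-Mg/phosphate carriers Slc25a23, Slc25a24 and Slc25a25.

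Levels are log2 processed signals relative to the 75th percentile of the same array, so a level of 0 equals that percentile, and levels of different probes were not set against each other. A gene was represented by its brightest probe over all 21 arrays. It was tested in a fit if that probe was well above background on all arrays of at least 1 group there, and it was called higher or lower (rose or fell) at a change of 2-fold or more with a limma adjusted p below 0.05. The brightest probe was well above background on all 3 arrays for 41, 40 and 41 of the 47 members in late induced, late uninduced and late day 0 cells, for 39 in each of the P1 groups and for 38 in fresh hepatocytes. In each comparison of fresh and P1 groups 41 members were tested, and the members not tested were Slc25a2, Slc25a18, Slc25a31, Slc25a35, Slc25a41 and Slc25a54. In the comparisons of late groups 41 were tested as well, without Slc25a2, Slc25a18, Slc25a21, Slc25a31, Slc25a41 and Slc25a54. Only 1 member, Slc25a54, had no probe that was well above background on any of the 21 arrays.

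The 75th percentile signal was 881 to 1241 on late, 466 to 789 on P1 and 291 to 332 on fresh arrays, and no spot was saturated. The late arrays came from another scanner and software version than the others, so passage and scanner cannot be told apart, and levels of late cells stand beside those of P1 and fresh cells as a description only. All 6 hepatocyte markers were well above background in every P1 and fresh array. Their summed linear level, in units of the 75th percentile, was 192 to 424 in late induced, 149 to 206 in late uninduced, 36.8 to 70.4 in late day 0, 655 to 815 in P1 induced, 368 to 428 in P1 uninduced, 428 to 607 in P1 day 0 and 2240 to 2611 in fresh samples. Of the 6 progenitor and biliary markers, 6 were well above background on all P1 day 0 arrays against 2 on all fresh arrays. The RNA came from whole cell preparations, in which fewer cells of a type and less RNA per cell cannot be told apart.

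Promoters are shown for Slc25a13, Slc25a33 and Slc25a47, whose response to induction differed between late and P1 cells, and for Slc25a29, which neighbours Slc25a47 on chromosome 12 and rose at both passages. The windows are from RefSeq on GRCm38.p6, 5′ to 3′ on the gene's own strand, 300 bases each that reach from upstream to just past the start, with CCAAT or its reverse complement ATTGG (the letters of the NF-Y motif) in capitals.
Slc25a47, chr12:108850879-108851178, plus strand: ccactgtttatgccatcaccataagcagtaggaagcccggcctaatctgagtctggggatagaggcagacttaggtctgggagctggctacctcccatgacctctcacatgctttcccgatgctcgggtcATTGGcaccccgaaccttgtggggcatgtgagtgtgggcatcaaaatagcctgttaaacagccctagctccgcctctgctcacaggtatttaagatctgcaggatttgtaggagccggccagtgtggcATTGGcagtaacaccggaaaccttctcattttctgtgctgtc
Slc25a29, chr12:108835827-108836126, minus strand: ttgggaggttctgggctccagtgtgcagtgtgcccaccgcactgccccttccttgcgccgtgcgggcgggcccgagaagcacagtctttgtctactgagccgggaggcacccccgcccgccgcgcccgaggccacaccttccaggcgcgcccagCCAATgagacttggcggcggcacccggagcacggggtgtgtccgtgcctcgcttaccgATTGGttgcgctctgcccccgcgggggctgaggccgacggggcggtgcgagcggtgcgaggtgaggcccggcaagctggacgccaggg
Slc25a33, chr4:149774218-149774517, minus strand: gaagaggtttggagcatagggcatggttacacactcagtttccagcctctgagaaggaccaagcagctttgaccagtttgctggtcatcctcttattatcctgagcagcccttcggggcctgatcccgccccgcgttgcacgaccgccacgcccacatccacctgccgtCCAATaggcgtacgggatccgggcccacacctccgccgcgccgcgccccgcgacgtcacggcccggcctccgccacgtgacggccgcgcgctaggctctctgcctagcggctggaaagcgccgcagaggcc
Slc25a13, chr6:6217124-6217423, minus strand: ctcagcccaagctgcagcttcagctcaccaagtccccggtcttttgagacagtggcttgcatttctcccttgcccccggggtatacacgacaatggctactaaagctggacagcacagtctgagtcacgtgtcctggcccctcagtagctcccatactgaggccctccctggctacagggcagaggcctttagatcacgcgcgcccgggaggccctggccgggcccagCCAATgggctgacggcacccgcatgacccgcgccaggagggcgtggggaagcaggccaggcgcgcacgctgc

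These 4 windows were searched on both strands for 5 motifs. The letters TTCNNNGAA (STAT), AGAACA (core letters of a glucocorticoid receptor site), TTGCNNAA (C/EBP) and the NRF1 motif matched in none of the 4. CCAAT matched 2 times each in the windows of Slc25a47 and Slc25a29 and 1 time each in those of Slc25a33 and Slc25a13. Windows were found for 36 of the 47 members (46 windows), of which 22 held CCAAT (47.8%), against 37.4% of 32851 windows of all genes. TTCNNNGAA was in 2 of the 46 (8.30% of all windows), AGAACA in 4 (19.0%), TTGCNNAA in 3 (10.8%) and the NRF1 motif in 2 (4.60%). None of the 5 motifs holds another, and a match or its lack describes these letters in this window only.

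In P1 day 0 cells, 16 of the 41 tested carriers were lower and 6 higher than in fresh hepatocytes. The lower ones included the ornithine carrier Slc25a15, the aspartate/glutamate carrier Slc25a13, the acylcarnitine carrier Slc25a20, the glutamate carrier Slc25a22 and Slc25a47, a liver-enriched carrier. The higher ones were led by the ATP-Mg/phosphate carrier Slc25a24 and the pyrimidine nucleotide carrier Slc25a36, whose brightest probes were dim in fresh hepatocytes, and by the adenine nucleotide carrier Slc25a4. Among all tested genes 25.2% were called lower and 25.4% higher (50.6% together), so that the share of members called lower (39.0%) lay above the background and the share called higher (14.6%) below it. The median log2 difference was -0.79 over the 41 members and -0.01 over all tested genes. The arrays of the groups did not overlap in 35 of the members, against 79.6% of all tested genes. By adjusted p alone 24 members were lower and 10 higher, against 39.6% and 39.5% of all genes. The 18 general mitochondrial genes (import, chaperone and outer membrane proteins, with others such as Cs, Tfam and Opa1) had a median of -0.58. Of these, 1 was called higher (Tomm20) and 0 lower, and carriers and these genes are shown beside each other with no test between them.

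**Figure D1:**
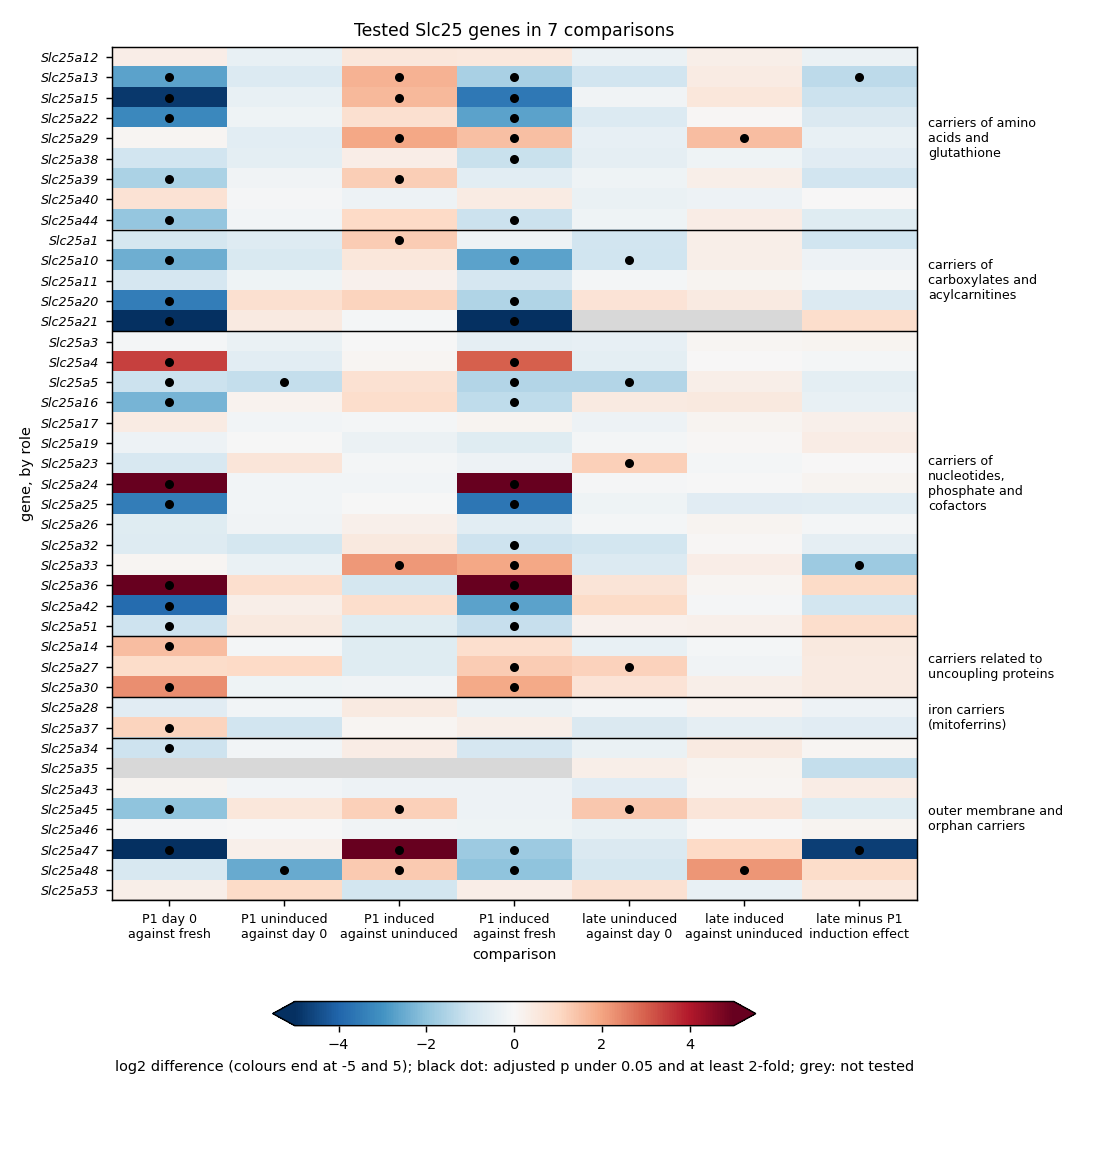
Log2 difference of each tested Slc25 gene (rows, by role) in 7 comparisons (columns), red for higher and blue for lower in the first-named group, with colours ending at 5 and -5. Black dots mark genes with adjusted p under 0.05 and at least 2-fold, and grey cells were not tested. The P1 day 0 column holds 16 dots for lower and 6 for higher genes, and the late induction column 2.

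Among the carriers of amino acids and glutathione, 5 of 9 tested fell in P1 day 0 cells and 0 rose. Slc25a15, the ornithine carrier of the urea cycle, had levels of -3.52, -3.25 and -3.16 in P1 day 0 cells, against 0.92, 1.79 and 1.81 in fresh hepatocytes. All P1 day 0 arrays lay far below all fresh arrays, and the log2 difference was -4.82 ± 0.24 (SE; adjusted p = 1.2e-08). Slc25a13 (citrin), the liver form of the aspartate/glutamate carrier, stood at 2.38, 2.38 and 2.46 in P1 day 0 cells, against 4.87, 5.30 and 5.08 in fresh hepatocytes. The groups did not overlap, and Slc25a13 fell by 2.68 on the log2 scale (SE 0.17, adjusted p = 7.8e-08). Slc25a12 (aralar), the form of the same carrier used mainly in brain and muscle, was at 2.33, 2.29 and 2.20 in P1 day 0 cells and at 2.01, 1.78 and 2.06 in fresh hepatocytes. Its groups did not overlap either, but the difference of 0.33 ± 0.09 was under 2-fold (adjusted p = 0.0073). Other Slc25a12 probes well above background on all 21 arrays gave 0.30 and 0.14 (RefSeq transcript) and -0.57 (another transcript), so the direction is not shared. The glutamate carrier Slc25a22 had levels of -0.26, -0.27 and 0.15 in P1 day 0 cells, against 2.90, 3.09 and 3.31 in fresh hepatocytes. The P1 day 0 arrays were all lower, with a log2 difference of -3.22 ± 0.15 (adjusted p = 5.7e-09). Slc25a44, a carrier of branched-chain amino acids known from brown fat, fell by 1.94 (adjusted p = 4.7e-08), and Slc25a39, the glutathione carrier, fell by 1.59 (adjusted p = 2.7e-07). Slc25a29, a carrier of basic amino acids, did not pass the test (0.11 ± 0.17, adjusted p = 0.56), with overlapping groups.

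Of the enzymes around these carriers, all 7 tested urea cycle and ornithine genes fell in P1 day 0 cells (median -7.57), among them the mitochondrial Cps1 (-10.38) and Otc, which was dim in P1 day 0 cells and lower by at least 1676-fold. Among the 7 malate-aspartate shuttle and glutamate genes, 1 rose and 4 fell, which were Gls2, the liver glutaminase (-8.25), Got1 (-3.42), Mdh1 (-3.09) and Got2 (-1.85).

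Among the carriers of carboxylates and acylcarnitines, 3 of 5 fell in P1 day 0 cells and 0 rose. Slc25a20, which brings acylcarnitines into the matrix for fatty acid oxidation, had levels of -1.27, -2.31 and -1.47 in P1 day 0 cells, against 0.80, 2.39 and 2.16 in fresh hepatocytes. Fresh replicate 1 was the lowest fresh array and still lay above every P1 day 0 array. The log2 difference was -3.46 ± 0.43 (adjusted p = 2.4e-05). Slc25a21, the oxoadipate carrier of lysine and tryptophan breakdown, was at -6.01, -6.05 and -5.81 in P1 day 0 cells, where this brightest probe was well above background on no array, against 1.02, 1.35 and 0.88 in fresh hepatocytes. As its P1 value is only a bound, Slc25a21 was lower by at least 31.4-fold (adjusted p = 1.9e-08 for a fitted log2 difference of -7.04). Such bounds replace a dim value by the weakest signal that counted as well above background on the same array, where that is higher. Slc25a10, the dicarboxylate carrier, had levels of -0.82, -1.20 and -0.66 in P1 day 0 cells, against 1.27, 1.70 and 1.71 in fresh hepatocytes. Without overlap, it fell by 2.46 (SE 0.15, adjusted p = 8.3e-08). Slc25a1, the citrate carrier that supplies lipid synthesis, stood at 3.09, 3.06 and 3.39 in P1 day 0 cells and at 3.79, 4.20 and 4.17 in fresh hepatocytes. Its groups did not overlap, but the difference of -0.88 ± 0.14 was under 2-fold (adjusted p = 1.7e-04).

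Partners of these carriers moved alongside. In the carnitine shuttle list, 4 of 5 genes fell in P1 day 0 cells, with Cpt1a at -2.69 and Cpt2 at -2.80, and Cpt1c rose, by at least 42.9-fold over a dim fresh level. Of 6 citrate export partners 4 fell, including Acly (-1.16) and Acss2 (-4.77). The subunits of the pyruvate carrier, which is no Slc25 protein, fell by 3.08 (Mpc1) and 3.67 (Mpc2).

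The carriers of nucleotides, phosphate and cofactors split, with 3 of 15 higher and 5 lower in P1 day 0 cells. Among the adenine nucleotide carriers and among the ATP-Mg/phosphate carriers, members moved in opposite directions.

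Slc25a4 (adenine nucleotide carrier 1, the form of heart and muscle) had levels of 7.18, 7.10 and 7.25 in P1 day 0 cells, against 3.66, 3.75 and 3.82 in fresh hepatocytes. All P1 day 0 arrays were far above all fresh arrays, by 3.43 ± 0.09 (adjusted p = 1.4e-10). Slc25a5 (adenine nucleotide carrier 2) stood at 5.35, 5.32 and 5.42 in P1 day 0 cells, against 6.45, 6.48 and 6.36 in fresh hepatocytes. It fell by 1.07 (SE 0.12, adjusted p = 1.0e-05), without overlap. Slc25a31 (adenine nucleotide carrier 4, the form of germ cells) was dim on every P1 day 0 and fresh array and was not tested. Its levels were -6.10, -6.10 and -5.88 in P1 day 0 cells and -5.27, -5.12 and -5.41 in fresh hepatocytes.

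Slc25a24, an ATP-Mg/phosphate carrier regulated by calcium, had levels of 3.79, 3.82 and 3.89 in P1 day 0 cells. In fresh hepatocytes it was well above background on no array (-5.18, -5.58 and -5.63), and it was higher in P1 day 0 cells by at least 139-fold. Its limma adjusted p of 1.2e-12 is for a fitted log2 difference of 9.29 that takes the dim fresh signals as measured. It gives no size beyond the bound. Slc25a25, another carrier of the same kind, stood at 1.06, 1.24 and 1.33 in P1 day 0 cells, against 3.92, 5.24 and 4.85 in fresh hepatocytes. It fell by 3.46 (SE 0.26, adjusted p = 4.3e-07), with no overlap. Slc25a23, the third of them, differed by -0.79 ± 0.27 by its brightest probe, with overlapping groups. Its other probes, both from the RefSeq transcript, differed by -4.14 and -4.07, so the direction is shared and the size is not.

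The brightest probe of Slc25a36, a pyrimidine nucleotide carrier, was well above background on no fresh array (-4.87, -5.55 and -4.40) and had levels of 0.26, 0.54 and 0.05 in P1 day 0 cells. It was higher in P1 day 0 cells by at least 11.9-fold (adjusted p = 8.7e-09 for a fitted log2 difference of 5.22 from dim fresh signals). Slc25a33, another pyrimidine nucleotide carrier, did not pass the test (0.09 ± 0.12, adjusted p = 0.50), with overlapping groups. Slc25a42, a carrier of coenzyme A, was at 0.56, 0.72 and 1.17 in P1 day 0 cells, against 4.64, 4.83 and 4.54 in fresh hepatocytes. It fell by 3.85 (SE 0.19, adjusted p = 1.1e-08), without overlap. Slc25a16, also linked to coenzyme A, fell by 2.33 (adjusted p = 1.9e-09) by its brightest probe, while its other probe differed by 0.24. Slc25a51, the NAD carrier, fell by 1.03 (adjusted p = 4.3e-05). Slc25a3, the phosphate carrier, did not pass the test (-0.08 ± 0.08, adjusted p = 0.35).

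**Figure D2:**
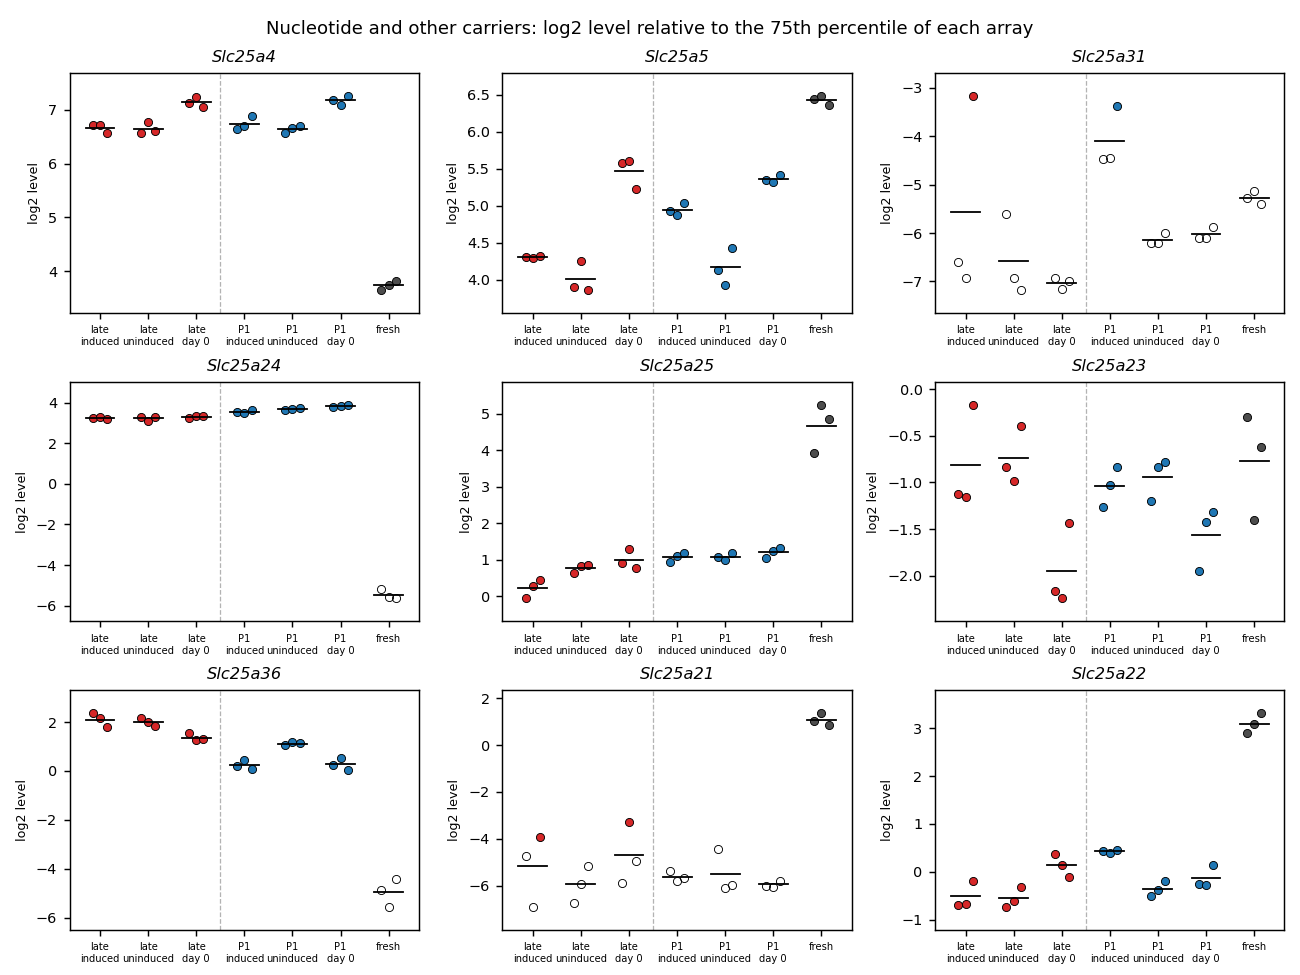
Log2 levels (vertical axes, relative to the 75th percentile of the array) of 9 Slc25 genes in each array of the 7 groups, with bars at the group means; open points were not well above background, and the dashed line parts the late arrays from those of the other scanner. Slc25a4 and Slc25a24 lie higher in every CLiP array than in fresh hepatocytes, and Slc25a22, Slc25a25 and Slc25a21 lower, with most CLiP arrays of Slc25a21 not well above background.

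Of the carriers related to uncoupling proteins, 2 of 3 rose in P1 day 0 cells. Slc25a30 had levels of 1.56, 1.41 and 1.87 in P1 day 0 cells, against 0.07, -0.59 and -1.59 in fresh hepatocytes. Fresh replicate 3 was the lowest and the groups did not overlap, with a difference of 2.31 ± 0.32 (adjusted p = 5.9e-05). Slc25a14 stood at 2.38, 2.33 and 2.31 in P1 day 0 cells, against 1.04, 0.64 and 0.71 in fresh hepatocytes, and rose by 1.55 (SE 0.12, adjusted p = 3.5e-07). Slc25a27 differed by 0.91, under 2-fold. Of the uncoupling proteins themselves, which have other symbols, Ucp2 and Ucp3 rose by 2.23 and 2.20.

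Of the mitoferrins, which import iron, Slc25a37 had levels of 3.73, 3.56 and 4.47 in P1 day 0 cells, against 3.49, 2.32 and 2.60 in fresh hepatocytes. It rose by 1.12 (SE 0.32, adjusted p = 0.0082), and fresh replicate 1 lay just under the lowest P1 day 0 array. Slc25a28 differed by -0.58 ± 0.08, under 2-fold. Of 10 iron-sulphur and haem partners 7 fell, Alas1 by 3.54. The summed level of the erythroid markers was 0.297 to 0.369 in P1 day 0 and 3.30 to 4.31 in fresh samples, with 3 and 2 of the 5 well above background on no array. Its part in these results was not tested.

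Among the outer membrane and orphan carriers, 3 of 7 tested fell. Slc25a47 had levels of -1.11, -1.16 and -0.61 in P1 day 0 cells, against 7.54, 6.94 and 5.90 in fresh hepatocytes. Fresh replicate 3 was the lowest fresh array, and every fresh array lay far above every P1 day 0 array. The log2 difference of -7.75 ± 0.33 (adjusted p = 3.7e-09) was the lowest fitted value of the 41 members, with Slc25a21 known only by a bound, and Slc25a47 has 1 probe, at chr12:110094661-110094720 (mm9, plus strand). Slc25a45 fell by 1.99 (adjusted p = 2.2e-05), and Slc25a34 by 1.04 (adjusted p = 0.0021) by its brightest probe. The other Slc25a34 probe differed by -7.27 but was well above background on no P1 day 0 array, so this size is not measured. Slc25a46, a protein of the outer membrane, did not pass the test (-0.04 ± 0.10, adjusted p = 0.71).

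The 19 members not called lay between -0.97 (Slc25a38, a glycine carrier) and 0.91 (Slc25a27). Of the 22 calls, 17 held in every alternative, and those of Slc25a5, Slc25a14, Slc25a34, Slc25a37 and Slc25a51 ended in at least 1. The 17 include Slc25a21, Slc25a24 and Slc25a36, whose brightest probes were well above background on no array of the lower group. Slc25a5 was -0.52 after quantile normalization and -0.94 after normexp correction. Slc25a51 ranged to -0.54, Slc25a14 gave 0.85 as a mean over its probes, and Slc25a37 gave 0.84 without P1 day 0 replicate 3 and 0.88 without fresh replicate 2. Slc25a34 gave -0.86 without P1 day 0 replicate 3 and -0.91 without fresh replicate 2, and Slc25a51 gave -0.93 and -0.89. With the scan day as a block, in which fresh replicate 3 is the single fresh array scanned with the P1 arrays, 7 members were higher and 14 lower. Markers of other liver cells moved too, and their part was not tested. The summed level of the endothelial markers was 0.423 to 0.461 in P1 day 0 and 3.63 to 6.44 in fresh samples, that of the Kupffer cell and macrophage markers 3.43 to 3.73 and 8.62 to 28.8, and that of the stellate and mesenchymal markers 33.9 to 45.6 and 7.09 to 8.83. In P1 day 0 cells 4 of 6 endothelial, 3 of 6 Kupffer cell and 1 of 6 stellate markers were well above background on no array, against 1, 0 and 2 in fresh hepatocytes.

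**Figure D3:**
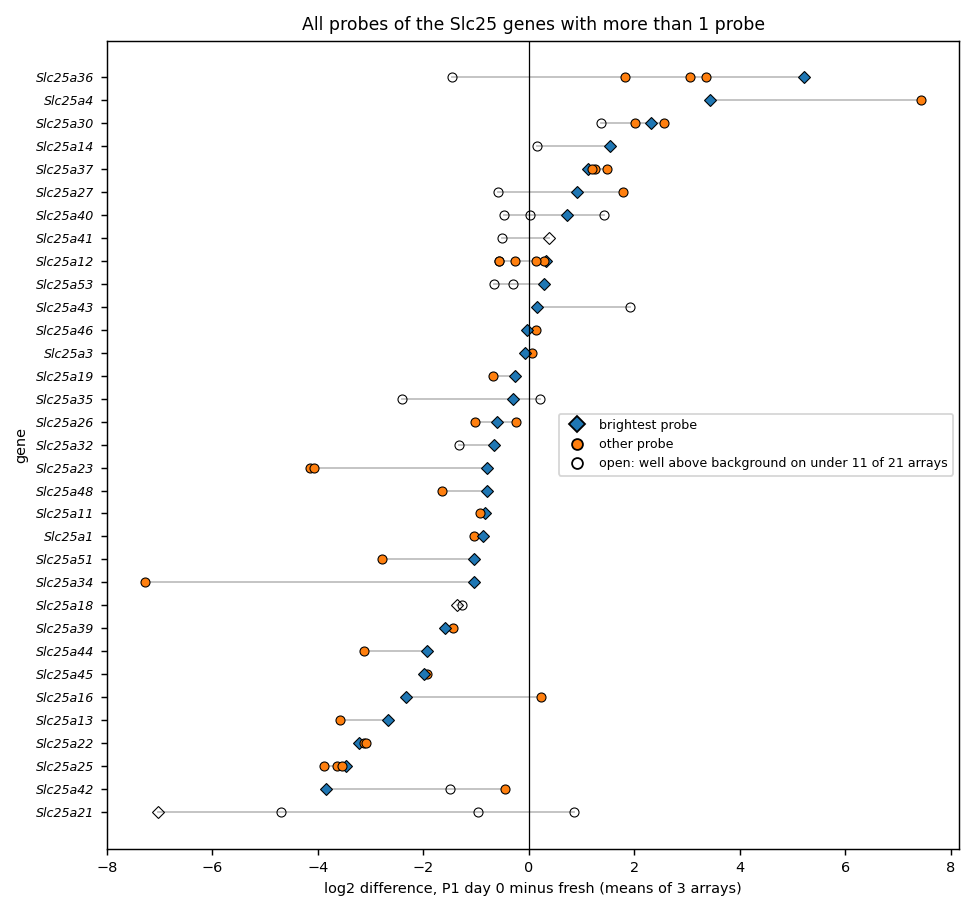
Log2 difference between P1 day 0 and fresh (horizontal axis, means of 3 arrays each) for every probe of the Slc25 genes with more than 1 probe. Diamonds are the brightest probes and circles the others; open symbols were well above background on under 11 of the 21 arrays. Probes of Slc25a37, Slc25a22, Slc25a25 and Slc25a45 lie close together, while those of Slc25a34, Slc25a4 and Slc25a23 spread over several log2 units in the same direction.

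Of the called genes, 16 had other probes, 29 in all. Of these 29 probes, 23 differed by at least 2-fold in the same direction as the brightest, 3 by less and 3 had the opposite sign. Of the 13 that were well above background on all arrays of both groups, 12 moved at least 2-fold in the same direction, and the exception was that of Slc25a16. For Slc25a4 the other probe differed by 7.43, against 3.43 for the brightest. For Slc25a21 and Slc25a36, the probes of opposite sign were well above background on 1 array of the compared groups each.

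After 8 days of culture without inducers, few carriers in P1 cells differed from P1 day 0 cells by the test. Of 41 members, 2 fell and 0 rose (12 and 3 by limma's adjusted p alone, against 19.7% and 16.6% of all tested genes), against 4.87% lower and 6.28% higher among all tested genes, and the median was -0.15, against -0.00 over all. The groups did not overlap in 22 members (56.4% of all genes). Slc25a48, reported to carry choline, had levels of -1.44, -1.15 and -0.73 in P1 uninduced cells, against 1.40, 1.50 and 1.32 in P1 day 0 cells. It fell by 2.51 (SE 0.25, adjusted p = 4.0e-05), without overlap, and its other probe fell by 1.67. Slc25a5 was at 4.14, 3.93 and 4.43 in P1 uninduced cells, against the P1 day 0 levels given above, and fell by 1.19 (SE 0.12, adjusted p = 4.7e-05). Within slide 4 its difference was -1.30, and within slide 5 it was -0.98, under 2-fold.

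Induction of P1 cells raised 9 of the 41 carriers and lowered 0, against 9.68% higher and 9.02% lower among all tested genes. The 9 were Slc25a47, the carriers Slc25a13, Slc25a15, Slc25a29 and Slc25a39 of amino acids and glutathione, the citrate carrier Slc25a1, the pyrimidine nucleotide carrier Slc25a33, and Slc25a45 and Slc25a48. The share of members called higher was 22.0%, and the median log2 difference was 0.34, against 0.05 over all tested genes. By adjusted p alone, 18 members were higher and 4 lower (25.1% and 19.7% of all genes), and the groups did not overlap in 30 (61.2% of all genes).

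Slc25a47 had levels of 4.89, 4.94 and 5.10 in P1 induced cells, against -0.87, -0.69 and -0.60 in P1 uninduced cells. The groups lay far apart with a narrow spread in each, and the difference of 5.69 ± 0.33 (adjusted p = 3.8e-07) was the highest of the members. Slc25a33 stood at 3.79, 3.77 and 3.62 in P1 induced cells, against 1.50, 1.47 and 1.71 in P1 uninduced cells. It rose by 2.17 ± 0.12 (adjusted p = 2.9e-07), without overlap. Slc25a29 was at 0.22, 0.29 and 0.10 in P1 induced cells, against -1.54, -1.87 and -1.78 in P1 uninduced cells, and rose by 1.93 ± 0.17 (adjusted p = 5.9e-06). Slc25a47 and Slc25a29, whose promoter windows are printed above, are next to each other among RefSeq's protein-coding genes on chromosome 12 and lie on opposite strands.

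Slc25a13 had levels of 3.24, 3.27 and 3.83 in P1 induced cells, against 1.60, 1.69 and 1.88 in P1 uninduced cells. Induced replicate 3 was the highest, all induced arrays lay above all uninduced ones, and the difference was 1.72 ± 0.17 (adjusted p = 1.4e-05). Slc25a15 was at -1.92, -2.33 and -1.91 in P1 induced cells, against -3.97, -3.54 and -3.56 in P1 uninduced cells, where replicate 1 was not well above background. It rose by 1.64 ± 0.24 (adjusted p = 2.7e-04). Slc25a48 stood at -0.04, 0.31 and 0.33 in P1 induced cells and rose by 1.31 ± 0.25 (adjusted p = 0.0015). The other Slc25a48 probe differed by 0.89.

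Slc25a1 had levels of 3.83, 3.73 and 3.90 in P1 induced cells, against 2.62, 2.36 and 2.65 in P1 uninduced cells. It rose by 1.28 ± 0.14 (adjusted p = 3.6e-05), without overlap. Slc25a39 rose by 1.25 ± 0.11 (adjusted p = 9.6e-06) and Slc25a45 by 1.19 ± 0.25 (adjusted p = 0.0026). The acylcarnitine carrier Slc25a20 was at -0.15, 0.47 and 0.47 in P1 induced cells and at -0.36, -0.88 and -1.35 in P1 uninduced cells. Its groups did not overlap, and the difference of 1.13 ± 0.43 did not pass the test (adjusted p = 0.056).

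Other carriers of the same comparison stayed under 2-fold. Slc25a22 was at 0.42, 0.40 and 0.46 in P1 induced cells and at -0.51, -0.38 and -0.18 in P1 uninduced cells, a difference of 0.78 ± 0.15. Slc25a12 was at 2.48, 2.40 and 2.49 in P1 induced cells and at 1.92, 1.87 and 1.91 in P1 uninduced cells (0.56 ± 0.09). Slc25a25 was at 0.93, 1.11 and 1.19 in P1 induced cells and at 1.08, 0.99 and 1.20 in P1 uninduced cells, with overlapping groups (-0.01 ± 0.26). Of the adenine nucleotide carriers, Slc25a4 was at 6.63, 6.70 and 6.88 in P1 induced and 6.56, 6.65 and 6.70 in P1 uninduced cells (0.10 ± 0.09), and Slc25a5 at 4.94, 4.87 and 5.03 in P1 induced cells (0.78 ± 0.12). Slc25a31 was well above background on 1 P1 induced array (-4.47, -4.44 and -3.38) and on no P1 uninduced array (-6.21, -6.20 and -5.99). The lowest fitted difference among the 41 was that of Slc25a53 (-0.91 ± 0.37, adjusted p = 0.069). Slc25a53 was well above background on all 3 P1 uninduced arrays and on no P1 induced array, so the size of this difference is not measured.

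**Figure D4:**
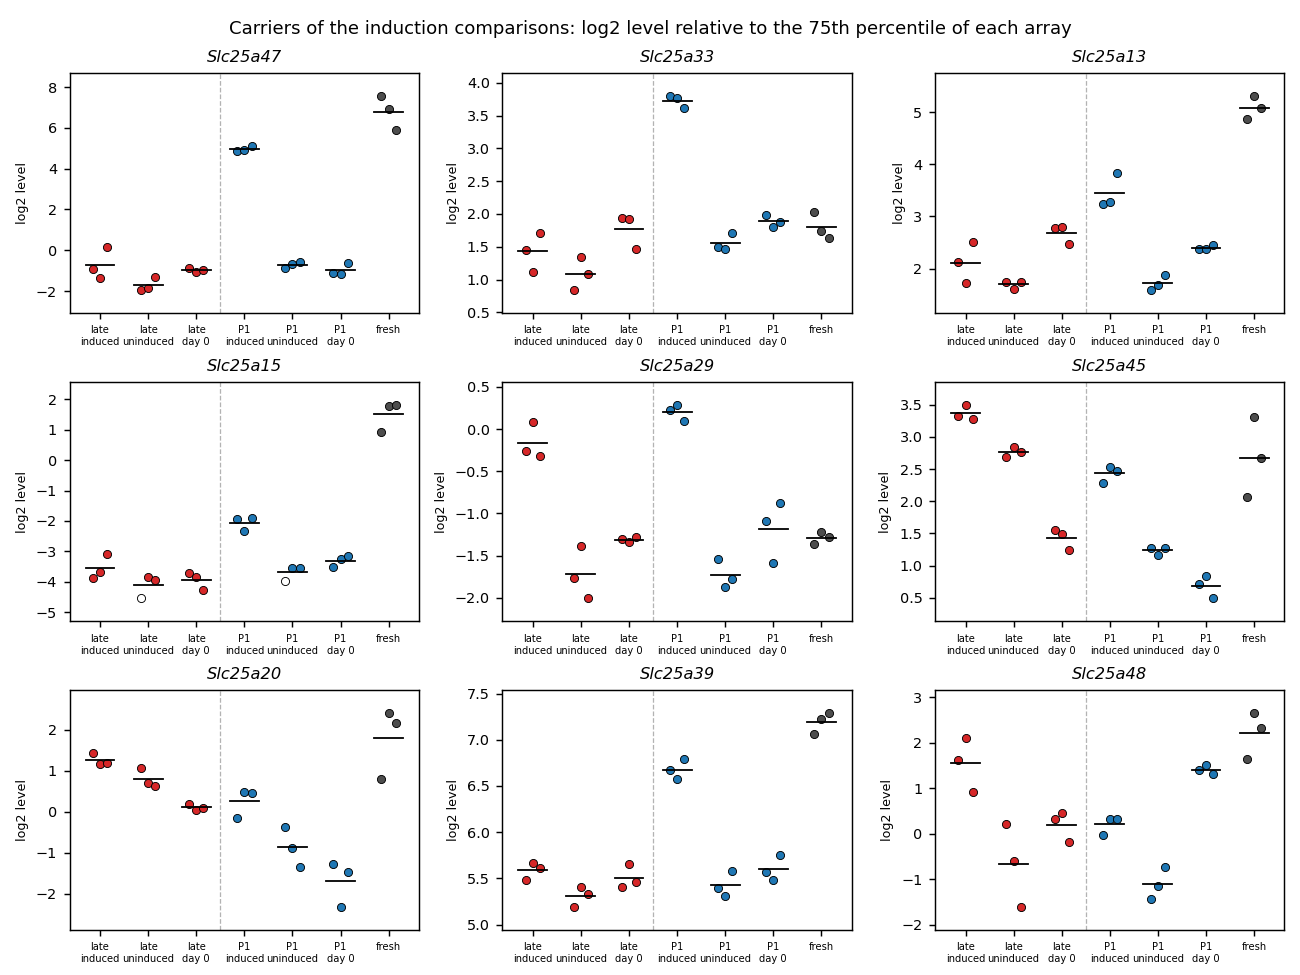
Log2 levels (vertical axes, relative to the 75th percentile of the array) of 9 Slc25 genes in each array of the 7 groups, with bars at the group means; open points were not well above background, and the dashed line parts the late arrays from those of the other scanner. In Slc25a47 the P1 induced arrays sit near 5, far above the late induced arrays, which lie between -1.37 and 0.16.

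The P1 arrays lay on 2 slides, 4 and 5, that each held all 3 P1 groups, some with 1 array whose spread is taken from the other groups. Within slides 4 and 5 Slc25a47 (5.67 and 5.61), Slc25a33 (2.31 and 1.98), Slc25a29 (1.93 and 1.97), Slc25a13 (1.59 and 1.67), Slc25a15 (1.83 and 1.44), and Slc25a1 (1.34 and 1.16) passed on both, as did Slc25a39. Slc25a48 passed on slide 4 (1.25) and not on slide 5 (1.05, adjusted p = 0.076), and Slc25a45 on neither (1.07, adjusted p = 0.11; 1.23, adjusted p = 0.076). Slc25a39 was under 2-fold after quantile normalization (0.92). The hepatocyte markers moved with these carriers, 5 of 6 rising, with the sums given above. Of the 6 progenitor and biliary markers 3 fell (Krt19, Krt7 and Epcam) and 1 rose (Spp1), with a median log2 difference of -1.45. Their sum was 691 to 813 in P1 induced and 474 to 508 in P1 uninduced samples. It was mostly Spp1, with mean log2 levels of 9.41 and 8.40, and so does not follow most of the list. Of the Kupffer cell and the stellate markers 1 each fell. The Kupffer cell sums were 7.91 to 10.1 in P1 induced and 17.1 to 22.8 in P1 uninduced samples. These sums were mostly Csf1r, with mean log2 levels of 2.97 and 4.15. Clec4f, Cd5l and Adgre1 were well above background on no array of either group. The stellate sums were 11.6 to 19.9 in P1 induced and 18.3 to 29.6 in P1 uninduced samples. The part of the markers in the carriers' rise was not tested.

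Of the urea cycle and ornithine genes 3 of 7 rose with P1 induction, Arg1 by at least 71.0-fold over a dim level, Cps1 by 3.42 and Nags by 2.46. Otc, the enzyme that uses the ornithine brought in by Slc25a15, was well above background in neither group. Of the citrate export partners 2 of 6 rose, Acss2 by 1.95 and Acaca by 1.55, and of the malate-aspartate and glutamate genes 2 of 7, Gls2 by 1.35 and Got1 by 1.03. Of the 18 general mitochondrial genes 0 were called in either direction (median 0.14).

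Set against fresh hepatocytes, P1 induced cells had 7 carriers higher and 16 lower of 41, with 20.3% higher and 18.8% lower among all tested genes, and a median of -0.51, against 0.04 over all. The groups did not overlap in 34 members (72.1% of all genes), and by adjusted p alone 10 were higher and 23 lower (37.1% and 34.4% of all genes). This comparison shares its fresh arrays with that of P1 day 0 and its induced arrays with the induction comparison, so the values stand side by side. Slc25a24 (at least 115-fold), Slc25a36 (at least 11.6-fold), Slc25a4 (3.00 ± 0.09), Slc25a30 (1.91), Slc25a33 (1.93 ± 0.12), Slc25a29 (1.49 ± 0.17) and Slc25a27 (1.27) were higher. Slc25a33 and Slc25a29 thus lay above the fresh level after induction, where P1 day 0 cells had shown no difference that passed the test.

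The lower carriers were led by Slc25a21 (at least 24.5-fold), Slc25a25 (-3.60 ± 0.26), Slc25a15 (-3.56 ± 0.24), Slc25a10, Slc25a22 and Slc25a42 (-2.67 each), and Slc25a48 (-2.00). Slc25a47 was still lower than in fresh hepatocytes by 1.82 (SE 0.33, adjusted p = 5.2e-04), as was Slc25a13 by 1.64, Slc25a20 by 1.52, Slc25a5 by 1.48, Slc25a16 by 1.27, Slc25a51 by 1.16, Slc25a38 by 1.13, Slc25a44 by 1.09 and Slc25a32, the folate carrier, by 1.02. Slc25a1 (-0.23 ± 0.14), Slc25a45 (-0.25 ± 0.25) and Slc25a39 (-0.51 ± 0.11) were not called. The Slc25a1 and Slc25a45 levels of P1 induced cells overlapped those of fresh hepatocytes.

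Of these 23 calls 15 held in every alternative, among them those of Slc25a21, Slc25a24 and Slc25a36, again with a dim lower group. Slc25a47 was -0.93, under 2-fold, with the scan day as a block, and Slc25a27 was 0.53 after normexp correction. Without fresh replicate 2, Slc25a38 was -0.92 and Slc25a44 -0.96, and Slc25a32 was -0.74 without fresh replicate 1. Slc25a5 was -0.98 and Slc25a51 -0.70 after quantile normalization, and Slc25a16 was -0.52 as a mean over its probes.

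In late cells, 8 days without inducers left 3 carriers higher and 2 lower of 41 than on late day 0, against 8.19% and 6.37% of all tested genes, with a median of -0.27, against -0.02 over all. The groups did not overlap in 30 members (58.1% of all genes). Markers moved as well, with 2 of 6 hepatocyte (Alb and Ttr), 2 of 6 progenitor and biliary and 1 of 3 tested Kupffer cell and macrophage markers higher. Of the 5 brown fat and muscle markers, the 2 tested (Cidea and Ppargc1a) were higher, and Myh1, Ckm and Actn2 were not tested. Of 3 tested stellate and mesenchymal markers 1 was lower. The part of the markers in the carriers' changes was not tested. Slc25a45 had levels of 2.68, 2.85 and 2.77 in late uninduced cells, against 1.56, 1.49 and 1.25 on late day 0, and rose by 1.34 ± 0.11 (adjusted p = 5.7e-05). Slc25a5 was at 3.91, 4.25 and 3.87 in late uninduced cells, against 5.59, 5.61 and 5.23 on late day 0, and fell by 1.46 (SE 0.14, adjusted p = 1.1e-04). Both pairs of groups were clear of each other.

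Slc25a27 was at -0.23, -0.12 and 0.28 in late uninduced cells, against -1.25, -1.40 and -0.83 on late day 0 (1.14 ± 0.18, adjusted p = 0.0013). Slc25a23 was at -0.84, -0.98 and -0.39 in late uninduced cells, against -2.16, -2.24 and -1.44 on late day 0 (1.21 ± 0.32, adjusted p = 0.016). Slc25a10 was at -1.93, -1.85 and -1.62 in late uninduced cells, against -1.06, -0.42 and -0.89 on late day 0 (-1.01 ± 0.22, adjusted p = 0.0061). The calls of these 3 ended in some alternatives, as Slc25a10 was -0.83 without late day 0 replicate 2, Slc25a27 was 0.99 without late uninduced replicate 3 and Slc25a23 had adjusted p = 0.059 without late day 0 replicate 2. Slc25a23 also ended without late day 0 replicate 1 (adjusted p = 0.056) or late uninduced replicate 3 (0.058), and Slc25a10 without late uninduced replicate 1 (-0.95) or 2 (-0.98). By another probe, well above background on all arrays of both groups, Slc25a23 rose by 0.73 and Slc25a27 by 0.72, both under 2-fold. The remaining probes gave 1.72 (Slc25a23) and 1.20 (Slc25a27) but were dim on some of these arrays.

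Induction of late cells raised 2 of the 41 carriers, Slc25a48 and Slc25a29, and lowered 0, against 2.94% higher and 3.06% lower among all tested genes (5.99% together). The groups did not overlap in 16 members (36.5% of all genes). The median log2 difference was 0.15, against 0.04 over all, and by adjusted p alone 7 members were higher and 0 lower (10.5% and 8.02% of all genes). Slc25a48 had levels of 1.62, 2.09 and 0.92 in late induced cells, against 0.21, -0.61 and -1.61 in late uninduced cells. Replicate 3, from passage 11 where the others are from passage 12, was the lowest of both groups, which did not overlap. Late induced replicate 3 was also the only late array on slide 7, with the others on slide 6, so its slide and passage cannot be told apart. The difference was 2.21 ± 0.47 (adjusted p = 0.015), and without late induced replicate 2 it was 1.93 with an adjusted p of 0.0501. Slc25a29 was at -0.26, 0.08 and -0.32 in late induced cells, against -1.76, -1.39 and -2.00 in late uninduced cells, and rose by 1.55 ± 0.17 (adjusted p = 9.4e-04).

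Other carriers that had risen in P1 cells were not called in late cells. Slc25a47 was at -0.92, -1.37 and 0.16 in late induced cells and at -1.93, -1.85 and -1.32 in late uninduced cells. Late induced replicate 2 lay within the uninduced range, and the difference of 0.99 ± 0.35 did not pass the test (adjusted p = 0.091). Slc25a33 was at 1.45, 1.12 and 1.71 in late induced cells and at 0.85, 1.34 and 1.08 in late uninduced cells (0.34 ± 0.20, adjusted p = 0.28). Slc25a13 was at 2.12, 1.72 and 2.51 in late induced cells and at 1.75, 1.62 and 1.75 in late uninduced cells (0.41 ± 0.19, adjusted p = 0.17). The groups overlapped for both genes.

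Further carriers were not called in late cells either. Slc25a15 was at -3.87, -3.69 and -3.09 in late induced cells and at -4.53, -3.85 and -3.95 in late uninduced cells (0.56 ± 0.26). Slc25a1 was at 2.55, 2.74 and 2.65 in late induced cells and at 2.30, 2.43 and 2.32 in late uninduced cells (0.29 ± 0.11). Slc25a20 was at 1.43, 1.17 and 1.19 in late induced cells and at 1.06, 0.71 and 0.64 in late uninduced cells (0.46 ± 0.13). The groups overlapped for Slc25a15 only, and Slc25a20 passed the adjusted p (0.044) but not 2-fold. Slc25a12 (0.29 ± 0.13), Slc25a22 (0.04 ± 0.18), Slc25a25 (-0.55 ± 0.17), Slc25a4 (0.02 ± 0.09) and Slc25a5 (0.30 ± 0.14) were likewise under 2-fold. Slc25a31 was well above background on 1 late induced array (-3.17) and on no late uninduced or late day 0 array.

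**Figure D5:**
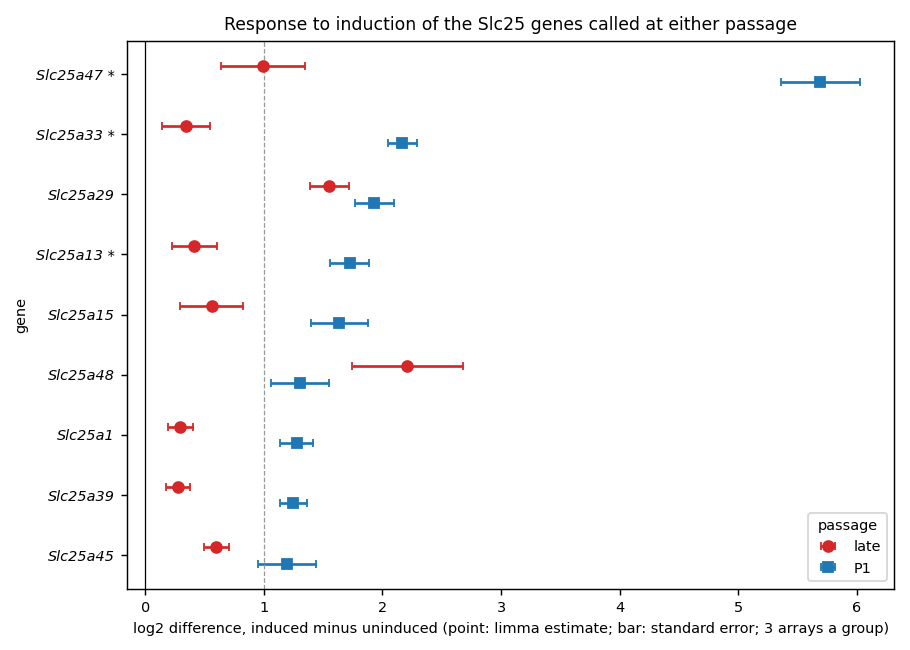
Log2 difference of induced minus uninduced cells (horizontal axis; points are limma estimates and bars standard errors, 3 arrays a group) in late (circles) and P1 cells (squares) for the 9 Slc25 genes called at either passage. An asterisk marks Slc25a47, Slc25a33 and Slc25a13, whose difference between passages passed the test, and the points of Slc25a29 lie nearest to each other, at 1.55 and 1.93.

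The difference of the induction effects, late minus P1, was tested in a fit of all 21 arrays, in which a constant offset between the scanners cancels. Of 42 tested members 3 had a lower effect in late cells and 0 a higher one (adjusted p alone gave 8 and 3, against 9.91% and 9.03% of all genes), against 5.2% lower and 4.73% higher (9.93% together) among all tested genes, and the median was -0.25, against 0.01 over all. Slc25a47 differed by -4.70 ± 0.51 (adjusted p = 1.5e-05), Slc25a33 by -1.83 ± 0.23 (adjusted p = 6.1e-05) and Slc25a13 by -1.31 ± 0.26 (adjusted p = 0.0019). All 3 were called in each of 20 alternatives. Slc25a1 (-0.98 ± 0.18, adjusted p = 0.0012) and Slc25a39 (-0.97 ± 0.15, adjusted p = 3.0e-04) lay just under 2-fold.

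Slc25a15 differed by -1.08 ± 0.37, at an adjusted p of 0.055, and of 0.0497 with the replicate number as a block. Slc25a29 (-0.38 ± 0.24, adjusted p = 0.33) and Slc25a48 (0.90 ± 0.54, adjusted p = 0.29), the genes called in late cells, did not differ by this test, which does not show that their responses were alike. Of the enzymes beside the carriers, Arg1 (-5.06), Cps1 (-1.95), Gls2 (-1.47), Got1 (-1.42), Acss2 (-1.23) and Acaca (-1.15) had a lower effect in late cells. Arg1 was dim in P1 uninduced cells, so its value is a fitted one and the size is not measured. Of the 18 general mitochondrial genes 1 had a lower effect, Hspa9. None of the 6 hepatocyte markers passed the test for late induction, where 5 of 6 did for P1 induction, and 1 of 6 had a lower effect in late cells by the test of the difference.

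As a description across the scanners, the late day 0 levels of several carriers lay near those of P1 day 0 cells. Slc25a47 was at -0.89, -1.05 and -0.97 on late day 0, Slc25a13 at 2.77, 2.80 and 2.47, Slc25a15 at -3.69, -3.82 and -4.28 and Slc25a4 at 7.13, 7.24 and 7.06. Slc25a24 was at 3.25, 3.34 and 3.34 and Slc25a22 at 0.37, 0.15 and -0.11. Slc25a36 stood higher on late day 0, at 1.56, 1.25 and 1.30, and Slc25a20 too, at 0.20, 0.04 and 0.09, while Slc25a48 stood lower, at 0.31, 0.44 and -0.18. Of the members not tested, Slc25a18 was well above background on 2 of 21 arrays, both of late day 0 (-2.64 and -4.25), and Slc25a2, an ornithine carrier, on 2 fresh arrays (-3.04 and -3.19) and 1 late induced array (-4.48).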

How the data were processed

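RNA of 21 samples was measured on 1-colour Agilent arrays, read by Feature Extraction per the file headers. The deposited scanner files hold the processed signal as a linear intensity, background-corrected by that software. The authors' deposited tables hold log2 values of the same arrays: the first (56605 probes) equals the log2 processed signal up to a shift per array, and the second (40786 probes) is also centred on each probe's median. Their column medians were -3.56 to -3.21 and -0.03 to 0.11, and they were not used for the results.

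Here log2 of the processed signal minus each array's 75th percentile was fitted with limma 3.58.1 in R 4.3.3, with Benjamini-Hochberg adjustment over all tested genes (20629 in the fit of 12 fresh and P1 arrays, 21326 in the fit of 9 late arrays, 22365 in the fit of 21). Control and flagged spots were left out, and spots of 1 probe were averaged. Groups were those of the labels, and no block was in the fits. Genes named with values for each array are the 6 highest and 6 lowest called per comparison, Slc25a4, Slc25a5 and Slc25a31, and a set of liver carriers. The members, lists and tests were chosen with earlier results of these data known. Of 82 member probes with a RefSeq accession, 81 were found in RefSeq's table under the same symbol. Exon and UTR positions were not analysed here.

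Alternatives were quantile normalization, normexp, other rules for probes and dim genes, slide, scan day and replicate number as blocks, single slides, and leaving out each array. As a check of pairing, deviations of same-numbered samples correlated at 0.18 to 0.41 between P1 uninduced and day 0. The correlations were 0.25 to 0.53 between late groups and 0.07 to 0.28 between P1 induced and uninduced. In each of these comparisons, every sample of 1 group correlated best with the same-numbered sample of the other. Same-numbered samples shared slides or passages in part. The match held also for late replicates 1 and 2, which were all on slide 6 and at passage 12. What the numbers stand for is not in the labels, and the main fits took no pairing. The replicate block was an alternative only. The number of arrays limits the precision. The scripts were tested on simulated data.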

Additional observations from a re-analysis of the deposited data

Results flagged for a closer look

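The response to induction differed between late and P1 cells for 3 carriers by the test of the difference itself. Slc25a47 gave 0.99 in late and 5.69 in P1 cells, a difference of -4.70 ± 0.51 (log2, SE; limma's adjusted p = 1.5e-05). Slc25a33 gave 0.34 in late and 2.17 in P1 cells, a difference of -1.83 ± 0.23 (adjusted p = 6.1e-05). Slc25a13 gave 0.41 in late and 1.72 in P1 cells, a difference of -1.31 ± 0.26 (adjusted p = 0.0019). The late effects of all 3 did not pass the test on their own. Late cells and the other scanner cannot be told apart.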

How the results depend on the processing

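By adjusted p alone, without the 2-fold minimum, the members that were higher and lower numbered 10 and 24 in P1 day 0 than in fresh cells, 3 and 12 in P1 uninduced than in P1 day 0 cells, 18 and 4 for P1 induction, 9 and 16 for late uninduced against late day 0, 7 and 0 for late induction, and 3 and 8 for the difference between passages. The same rule called 39.5% and 39.6%, 16.6% and 19.7%, 25.1% and 19.7%, 20.7% and 23.3%, 10.5% and 8.02%, and 9.03% and 9.91% of all tested genes in these comparisons. As means of all probes, 1 member was higher in P1 uninduced cells and 5 had a lower induction effect in late cells. Within slide 4, 1 member was higher in P1 uninduced cells, and within slide 5, 1 was lower. With the slide as a random block 1 member had a higher effect in late cells. After normexp correction 1 member was higher and 1 lower in late uninduced cells. The sign of Slc25a34 turned as a mean of its probes, 1 of which was dim on P1 day 0 arrays, to 1.34 for P1 uninduced against day 0, -1.30 for the difference between passages and 1.51 for late uninduced against day 0; the cause was not tested.

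Leaving out 1 array in turn gave 5 to 7 members higher and 14 to 19 lower in P1 day 0 than in fresh cells, 0 to 1 and 2 to 3 in P1 uninduced than in P1 day 0 cells, 9 to 10 and 0 to 0 for P1 induction, 7 to 7 and 14 to 16 for P1 induced against fresh, 2 to 3 and 1 to 4 for late uninduced, 2 to 2 and 0 to 0 for late induction, and 0 to 1 and 3 to 6 for the difference. In the difference, 6 were lower without P1 induced replicate 2, P1 uninduced replicate 3 or late uninduced replicate 1, and 5 without late induced replicate 2. For late uninduced cells, 1 was lower without late day 0 replicate 2 and 4 without late day 0 replicate 3. With the replicate block, 4 members had a lower effect in late cells, Slc25a15 being added, and no other member's call changed in any of the 7 comparisons. Quantile normalization moved the median of all genes to 0.13 and normexp to -0.17 in P1 day 0 against fresh, where the member medians were -0.54 and -0.66.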

Other observations

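The probes of Slc25a34 gave different directions for late induction. Its brightest probe, well above background on all 21 arrays, differed by -0.14 for P1 uninduced against day 0, 0.35 for P1 induction, -0.34 for late uninduced against day 0 and 0.45 for late induction. The other probe, well above background on 14 arrays, differed by 1.37 for P1 induction and -1.34 for late induction. Its mean level was -6.22 on P1 day 0, where it was well above background on no array, and -6.25 on late day 0. Its differences from these groups after 8 days are therefore not given here. Both carry the same RefSeq accession and lie at chr4:141179390-141179449 and chr4:141174747-141174806 (mm9, minus strand).

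Neighbouring members in RefSeq's order of protein-coding genes were Slc25a29 and Slc25a47, Slc25a41 and Slc25a23, Slc25a54 and Slc25a24, and Slc25a43 and Slc25a5. Of these 4 pairs, the first had both members called higher with P1 induction. In the fourth neither was called (-0.26 for Slc25a43 and 0.78 for Slc25a5). In the second and the third 1 member each, Slc25a41 and Slc25a54, was not tested.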
